A study of Gallus gallus with 6 samples.

Results

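The 37 genes described here encode proteins of the mitochondrial ribosome. They are the symbols in the deposited count table that begin with MRPL or MRPS and a digit, out of 6789 symbols in all. By symbol, 19 are MRPL and 18 are MRPS genes. MRPS18A and MRPS30 carry small-subunit names but sit in the large subunit in mammalian structures, so 21 genes were taken as large subunit and 16 as small subunit. All 37 passed the filter on low counts, which left 5041 genes for testing. RefSeq lists 36 further chicken symbols of the same form, which were not analysed here.

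The mitochondrial ribosome translates the few messenger RNAs encoded in mitochondrial DNA, which specify core subunits of the respiratory chain and ATP synthase. Its small subunit reads the messenger RNA and its large subunit forms the peptide bonds. All of its proteins are encoded in the nucleus, made in the cytosol and imported, so their messenger RNAs can be measured beside those of other nuclear genes. Some of the proteins have counterparts in bacteria (21 of the 37 genes), and others exist only in mitochondrial ribosomes (16 genes).

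RNA was sequenced from chick retinal cells positive for Hes5.3, a gene of the Notch-responsive HES family, sorted by flow cytometry. The RA group was cultured for 8 h with 2.5 µM retinoic acid, and the control group with the solvent DMSO. Both groups were whole retinas from embryonic day 5, kept in DMEM with serum and antibiotics, and each library pooled 2 retinas of different embryos. The control retinas came from the other side of the same embryos, which gives 3 RA and 3 control libraries in pairs numbered 1, 3 and 4. How Hes5.3 was detected in the sort, the sex of the embryos and the strain are not given in the sources used here.

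Total counts were 27235633, 19808063 and 23549626 in the RA libraries of pairs 1, 3 and 4, against 23596376, 21771962 and 26560761 in the control libraries. Known RA targets were higher with RA in every pair: CYP26A1, which breaks down retinoic acid, averaged 3043 ± 813 CPM with RA and 80.3 ± 6.36 CPM in controls (SD, n = 3 each). This was a log2 fold change of 5.22, and DHRS3 and RARB had 3.26 and 0.91 (edgeR quasi-likelihood adjusted p of 0.000588 and below for all 3). CPM is the count of a gene relative to the library total, after TMM scaling between libraries. All 11 retinal progenitor markers were detected, with a summed level of 5948 to 7274 CPM in RA libraries and 5639 to 6536 CPM in control libraries. Of the progenitor markers, RAX2 and SFRP1 were called higher with RA. The summed markers of other cells were lower, at 365 to 489 CPM in RA and 436 to 480.1 CPM in control libraries for ganglion cells (8 of 10 listed markers in the table). These sums reached 112 CPM at most for photoreceptor, horizontal and amacrine cells, 85.0 CPM for lens, 51.3 CPM for pigment epithelium and 24.99 CPM for mesenchyme. The lists differ in genes and in size, so the sums do not give shares of cells. Endothelial markers (2 of 5 listed in the table) stayed under 1 CPM in sum. Of 7 listed blood markers 4 were in the table, and 3 of these were at 0 in all 6 libraries. Markers that are not in the table could not be read.

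The level of the group as a whole was compared first, to see in which libraries these 37 genes take a larger share of the counts. The 37 genes summed to 5796, 6012 and 5833 CPM in the RA libraries of pairs 1, 3 and 4, against 6634, 5993 and 5658 CPM in the control libraries. The control library of pair 1 was the highest of the 6, and the other 5 lay close together. The means were 5880 ± 115 CPM with RA and 6095 ± 496 CPM in controls (SD, n = 3 each). The difference was smaller than the SD of the controls, but that SD includes differences between pairs. As a share of all counts the genes made up 0.588% ± 0.00830 with RA and 0.609% ± 0.0532 in controls (SD, n = 3 each). In sorted bulk cells, fewer cells of one type and less RNA per cell cannot be told apart.

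**Figure D1:**
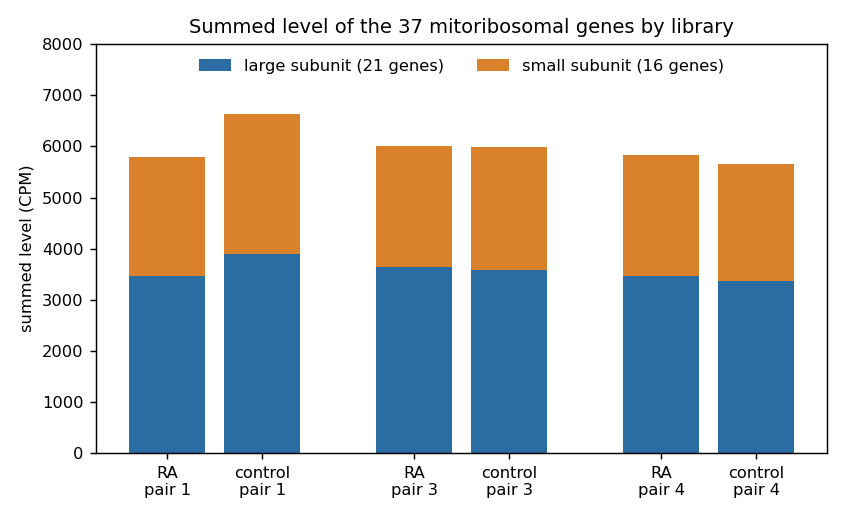
Summed level of the 37 mitoribosomal genes in CPM (bars from 0) in each library, RA left of control within pairs 1, 3 and 4, with the large subunit (21 genes) below and the small subunit (16 genes) on top. The control library of pair 1 reaches 6634 CPM, and the other 5 libraries lie between 5658 and 6012 CPM.

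Within pairs, the summed level had log2 ratios, RA over control, of -0.19 (pair 1), 0.0044 (pair 3) and 0.044 (pair 4). Gene by gene, 35 of the 37 genes were lower with RA in pair 1, 22 in pair 3 and 14 in pair 4. Over all genes tested, 49.7% were lower with RA in pair 1, 50.5% in pair 3 and 49.6% in pair 4. The median log2 ratio of the 37 genes was -0.22 (pair 1), -0.019 (pair 3) and 0.028 (pair 4), beside medians over all genes of 0.0014, -0.0021 and 0.0015. The low ratios lay mainly in pair 1. A value below the control in each of 3 pairs was found for 8 of the 37 genes, where 14.3% of all genes tested had one, and 13 genes were lower in pairs 1 and 3 and higher in pair 4.

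Pair 1 was taken apart into its 2 libraries, because a low ratio can come from either. The median log2 ratio of the RA library of pair 1 to the mean of the other RA libraries was -0.040 over the 37 genes. In it 16 of them were higher, against 46.5% of all genes tested. It held the lowest value of the 6 libraries for 14 of the 37 genes, and for 883 of all 5041 genes tested. The median log2 ratio of the control library of pair 1 to the mean of the other controls was 0.19, and 33 of the 37 genes were higher in it, against 48.6% of all genes tested. For 25 of the 37 genes the control library of pair 1 held the highest value of the 6 libraries, where 22.2% of all genes did. That library was made from the fewest cells, 57000 with 52.8 ng of RNA, against 98000 cells and 106.7 ng in the RA library of pair 1 and 161000 to 200000 cells in the other 4. The part of cell number in the level was not tested.

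**Figure D2:**
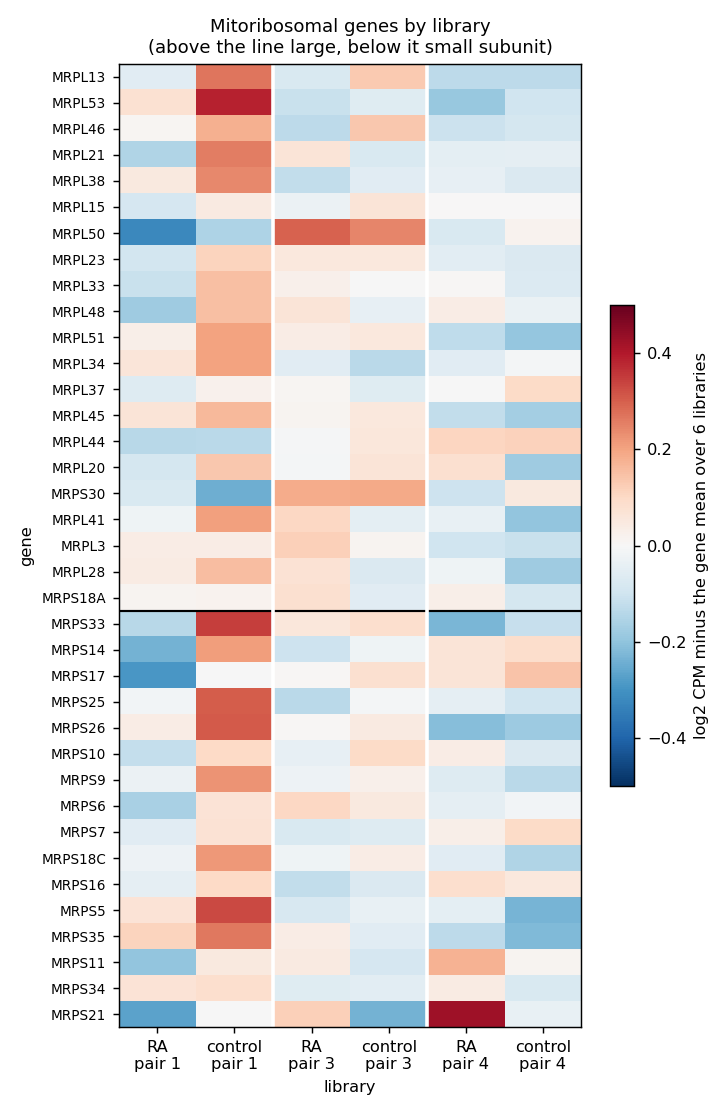
Level of each of the 37 genes (rows) in each library (columns, RA left of control within a pair), as log2 CPM minus the mean of the gene over the 6 libraries, with red above and blue below that mean. The column of the control library of pair 1 is red for most genes of both subunits, and MRPL50 and MRPS30 are instead highest in pair 3.

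The main comparison asked whether RA changed any mitoribosomal gene within the pairs. None of the 37 passed an adjusted p of 0.05 in edgeR's quasi-likelihood test with the pair as a block, where 1.07% of all 5041 genes tested did. None was called higher with RA, against 0.952% of all genes (48), and none lower, against 0.119% (6). By limma-voom and by DESeq2 the count was also 0 of 37. At an unadjusted p under 0.05 there was 1 mitoribosomal gene, where 8.89% of all genes tested passed. The lowest adjusted p among the 37 was 0.558. The log2 fold changes ran from -0.21 to 0.18 with a median of -0.056, beside a median of -0.0072 over all genes. A fold change below 0 was found for 28 of the 37, where 51.9% of all genes had one. Without pair 1 this was 17 of 37, and the median was 0.0082.

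Intervals were then read for each change. Their errors drew mainly on variance shared over all genes tested, with 12.8 prior beside 2 residual degrees of freedom. They are therefore not bounds from the 3 pairs of a gene alone. The median standard error was 0.086 on the log2 scale, and the 95% intervals of the 37 genes, each taken alone, ran from -0.51 at the lowest to 0.45 at the highest. All 37 intervals lay within a 1.5-fold change in either direction, and 36 included 0. Among the 54 genes called across the table, the smallest absolute log2 fold change was 0.30 and the median 0.62, against a median of 0.069 for the mitoribosomal genes. Calling favours genes with large changes, so the contrast is not particular to the mitoribosomal genes. In no mitoribosomal gene did the 3 RA values all lie below, or all above, the 3 control values, where 3.05% and 4.42% of all genes did. The authors' deposited table lists all 37, with log2 fold changes from -0.20 to 0.18 and no adjusted p below 0.996, while 12 genes of that table pass 0.05.

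**Figure D3:**
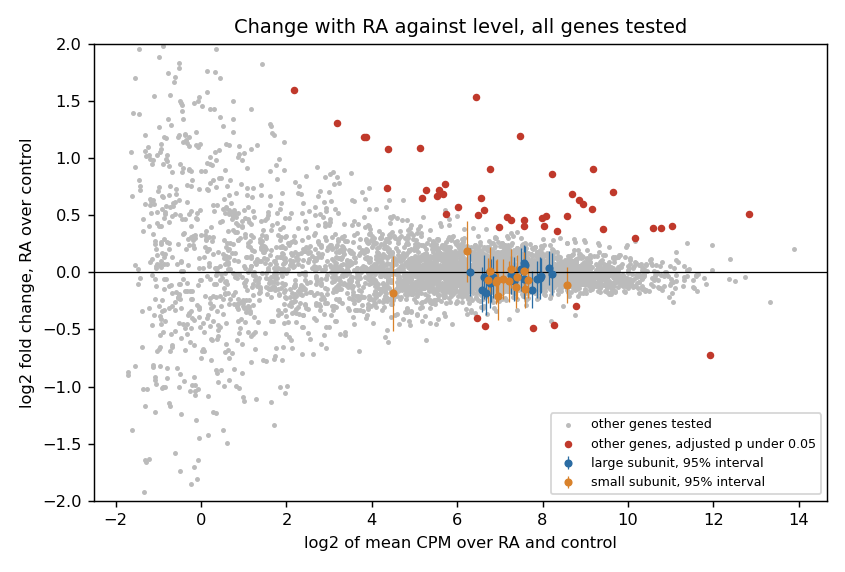
Log2 fold change, RA over control, against the log2 of the mean CPM for the genes tested (grey), with genes at an adjusted p under 0.05 in red and the mitoribosomal genes in blue (large subunit) and orange (small subunit) with 95% intervals. The axis leaves out 20 genes beyond a log2 fold change of 2, and the mitoribosomal genes lie between -0.21 and 0.18.

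In the large subunit, MRPL13, a counterpart of a bacterial core protein, had the lowest fold change. It had 97.3, 96.0 and 92.3 CPM in the RA libraries of pairs 1, 3 and 4, against 121.7, 110.8 and 92.3 CPM in the controls. The RA values were level while the controls of pairs 1 and 3 were high, and the groups overlapped. Its log2 fold change was -0.18 (SE 0.093, edgeR adjusted p = 0.618), and -0.10 without pair 1.

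MRPL53, a protein found only in mitochondrial ribosomes, had 223, 197 and 186 CPM with RA, against 276, 203 and 198 CPM in controls. It was lower with RA in 3 of 3 pairs, by most in pair 1, and the groups overlapped (log2 fold change -0.15, SE 0.077, edgeR adjusted p = 0.606, and -0.072 without pair 1). MRPL46, a protein of the central protuberance, had 95.4, 86.5 and 88.0 CPM with RA, against 107, 104 and 89.1 CPM in controls, and was also lower in 3 of 3 pairs. Here pair 3 had the larger difference, and the log2 fold change was -0.15 (SE 0.091, edgeR adjusted p = 0.691), or -0.094 without pair 3. MRPL21, a counterpart of a bacterial core protein, went opposite ways in pairs 1 and 3, with log2 ratios of -0.41 and 0.14, and its log2 fold change was -0.091.

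At the upper end of the large subunit stood MRPS18A, a member of the S18 family built into the large subunit. It had 192.7, 201.5 and 194.6 CPM with RA, against 193.2, 183.4 and 179.2 CPM in controls. The RA values of pairs 3 and 4 lay above every control, and that of pair 1 did not (log2 fold change 0.083, SE 0.075, edgeR adjusted p = 0.822, and 0.13 without pair 1). MRPL28, MRPL3 and MRPL41 followed with log2 fold changes of 0.061, 0.040 and 0.028. Without pair 1 these were 0.15, 0.058 and 0.15, and without pair 3 they were 0.020, 0.0074 and -0.035. MRPL3, whose bacterial counterpart reaches toward the peptidyl transferase centre, was the 1 gene of the 37 higher with RA in 3 of 3 pairs, by less than 0.001 on the log2 scale in pair 1, 0.10 in pair 3 and 0.015 in pair 4, where 15.7% of all genes were higher in 3 pairs.

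Large-subunit proteins at the peptide exit showed small differences. MRPL23, at the rim of the exit tunnel, averaged 229 ± 12.2 CPM with RA and 239 ± 15.2 CPM in controls (SD, n = 3 each). MRPL45, which contacts the inner membrane where the new chain emerges, averaged 248 ± 16.3 CPM with RA and 254 ± 29.3 CPM in controls (SD, n = 3 each). MRPL44, which has a ribonuclease III fold, averaged 152 ± 12.9 CPM with RA and 154 ± 13.6 CPM in controls (SD, n = 3 each). For each of these the difference was smaller than either SD, but these SDs include differences between pairs. With the pair as a block, the log2 fold changes of MRPL23, MRPL45 and MRPL44 were -0.061 (SE 0.075), -0.029 (SE 0.072) and -0.024 (SE 0.078).

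In the small subunit, MRPS33, found only in mitochondrial ribosomes, was the gene past an unadjusted p of 0.05 and had the lowest fold change of the 37. It had 111.9, 128.0 and 105.1 CPM with RA, against 156.7, 130.4 and 113.6 CPM in controls. It was lower with RA in 3 of 3 pairs, with log2 ratios of -0.49, -0.027 and -0.11, and the groups overlapped. Its log2 fold change was -0.21 (SE 0.097, edgeR adjusted p = 0.558), and without pair 1 it was -0.071 (edgeR adjusted p = 0.892). Over all alternatives its adjusted p was 0.506 or more.

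MRPS14, a counterpart of a protein in the head of the bacterial small subunit, had the fewest counts of the 37, 410 to 634 per library, and the widest interval, -0.51 to 0.14. It had 19.18, 21.02 and 23.63 CPM with RA, against 26.12, 22.28 and 23.996 CPM in controls. MRPS17 had 157, 193 and 202 CPM with RA, against 193, 204 and 213 CPM in controls. Both genes were lower with RA in 3 of 3 pairs with overlapping groups, at log2 fold changes of -0.18 and -0.15. Without pair 1 these were -0.054 for MRPS14 and -0.080 for MRPS17. MRPS25 followed at -0.13, lower in pairs 1 and 3 and higher in pair 4, and was at -0.036 without pair 1.

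MRPS21, a counterpart of the bacterial S21 protein, had the highest fold change of the 37 and the most divided pairs. It had 61.1, 79.9 and 98.9 CPM with RA, against 73.5, 62.6 and 71.8 CPM in controls. The RA libraries held both the lowest and the highest value, with log2 ratios of -0.27 in pair 1, 0.35 in pair 3 and 0.46 in pair 4. The log2 fold change was 0.18 (SE 0.13, edgeR adjusted p = 0.737), and without pair 1 it was 0.41 (edgeR adjusted p = 0.0545, the lowest of its alternatives, which were otherwise 0.714 and above) and without pair 4 it was 0.050. In RefSeq's GRCg7b annotation MRPS21 overlaps PRPF3, a splicing factor gene, and reads from overlapping genes may not be separable, since the library kit does not mark strand. PRPF3 itself had pair ratios of 0.14, -0.11 and 0.11. Across the 37 genes, 12 overlap another annotated gene in that assembly, and for 3 of these (MRPS10, MRPS18C and MRPS21) the partner is in the count table.

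At the upper end of the small subunit, after MRPS21, came MRPS34, MRPS11 and MRPS35 with log2 fold changes of 0.032, 0.015 and 0.011. MRPS34, which in mice is needed for a stable small subunit, averaged 156 ± 7.37 CPM with RA and 153 ± 9.22 CPM in controls (SD, n = 3 each). MRPS5, whose bacterial counterpart lines the messenger RNA entry, averaged 165 ± 9.16 CPM with RA and 171 ± 34.7 CPM in controls. MRPS7, in the head of the subunit, averaged 196 ± 7.59 CPM with RA and 206 ± 12.1 CPM in controls. MRPS18C, the counterpart of bacterial S18 in the small subunit, averaged 103 ± 1.40 CPM with RA and 108 ± 13.8 CPM in controls. These SDs include differences between pairs. The log2 ratios in pairs 1, 3 and 4 were -0.26, -0.046 and 0.19 for MRPS5 and -0.13, -0.010 and -0.067 for MRPS7. For MRPS18C they were -0.24, -0.058 and 0.095. With the pair as a block, the log2 fold changes of MRPS5, MRPS7 and MRPS18C were -0.041 (SE 0.089), -0.069 (SE 0.074) and -0.069 (SE 0.092).

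**Figure D4:**
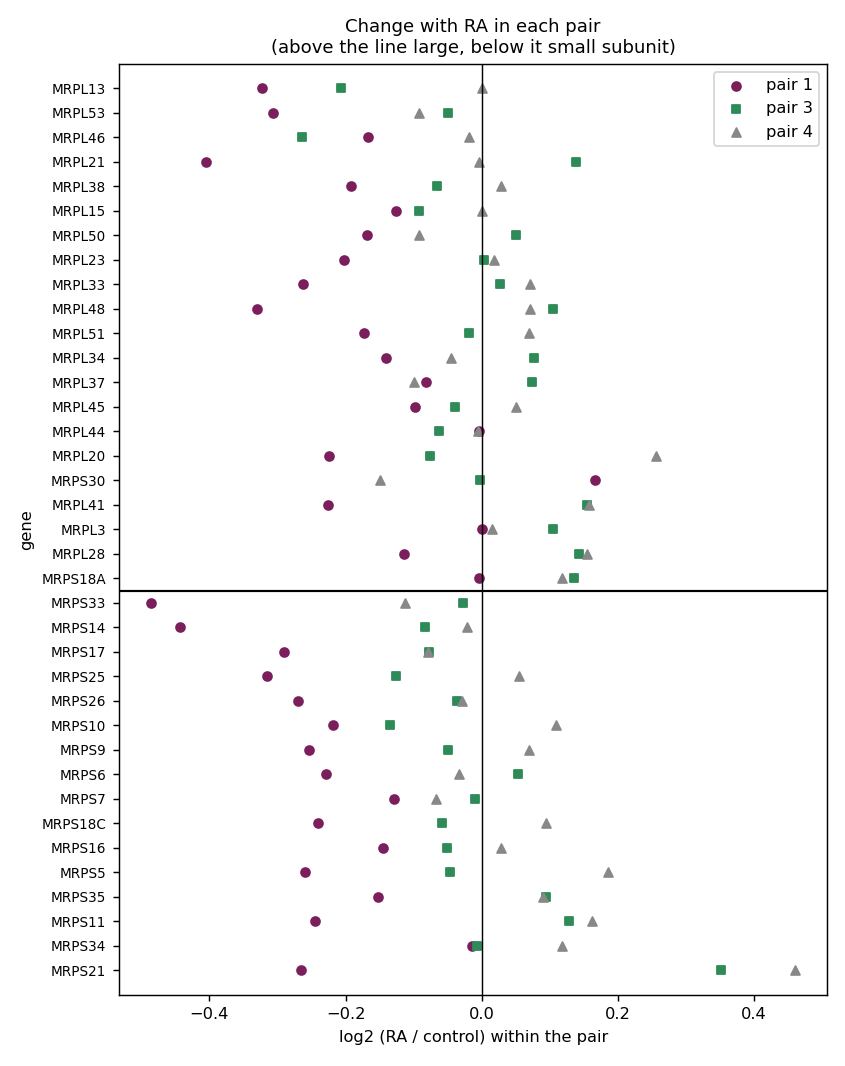
Log2 ratio, RA over control, of each of the 37 genes within pair 1 (circles), pair 3 (squares) and pair 4 (triangles), ordered by fold change within the large subunit (above the line) and the small subunit (below it). In pair 1, 35 of 37 genes lie below 0, against 22 in pair 3 and 14 in pair 4.

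The subunits were then set against each other. The median log2 fold change was -0.042 for the large subunit (16 of 21 genes below 0) and -0.070 for the small subunit (12 of 16 below 0). Within pairs the large-subunit medians were -0.17, 0.0028 and 0.015, and the small-subunit medians -0.25, -0.041 and 0.062. The large minus small differences were therefore 0.081, 0.044 and -0.047 in pairs 1, 3 and 4, with an SD of 0.066 over pairs. It changed sign between pairs, and the overall difference of 0.028 was smaller than that SD.

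In pair 1 all 16 small-subunit genes were lower with RA, and 19 of 21 large-subunit genes were. The exceptions were MRPS30 (log2 ratio 0.17) and MRPL3, which differed by less than 0.001. Gene lengths were not available, so CPM was not compared between genes or between subunits as an amount, and the ratio of summed CPM was used only to compare libraries. Large over small was 1.49, 1.53 and 1.47 in the RA libraries of pairs 1, 3 and 4, against 1.42, 1.49 and 1.47 in the control libraries. The mean ratio was 1.495 ± 0.0317 with RA and 1.462 ± 0.0385 in controls (SD, n = 3 each), with the control library of pair 1 the lowest. The ratio of the median levels of the subunits was 1.18 ± 0.0277 with RA and 1.18 ± 0.0359 in controls (SD, n = 3 each).

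Genes with bacterial counterparts had a median log2 fold change of -0.061 (21 genes), and genes restricted to mitochondrial ribosomes had -0.047 (16 genes). In pair 1, 20 of the 21 and 15 of the 16 were lower with RA. In the control library of pair 1, all 5 small-subunit genes restricted to mitochondrial ribosomes (MRPS25, MRPS26, MRPS33, MRPS34 and MRPS35) were at their highest of the 6 libraries. So were 6 of the 11 small-subunit genes with bacterial counterparts, 7 of 11 large-subunit genes restricted to mitochondrial ribosomes and 7 of 10 with bacterial counterparts, where 22.2% of all genes tested were.

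Differences between the numbered pairs were tested in the same fit, with the treatment in the model. The pairs differ in their embryos and also in cell number, and the pair terms cannot tell these apart. The pair terms were called for 3 of the 37 genes, where 13.6% of all genes tested were called (edgeR adjusted p under 0.05). MRPS26 had 389, 381 and 327 CPM with RA, against 469, 391 and 334 CPM in controls, highest in pair 1 and lowest in pair 4 in both groups (edgeR adjusted p of the pair terms 0.0299). MRPL53 had the same order of pair means (adjusted p 0.0259), and MRPS35 also had it and fell just short (adjusted p 0.0501). MRPS5 and MRPL45 came next in their subunits, with adjusted p-values of 0.0903 and 0.126.

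MRPL50 had a different order, with 87.2, 133.6 and 103.4 CPM with RA, against 98.0, 129.0 and 110.3 CPM in controls (edgeR adjusted p of the pair terms 0.0152). Both libraries of pair 3 were above the other 4. MRPS30 showed the same feature, at 74.7, 89.6 and 73.3 CPM with RA and 66.6, 89.8 and 81.4 CPM in controls, although its pair terms were not called (adjusted p 0.14). Both genes lie on the Z sex chromosome in chicken. Their neighbours were looked at after these values were seen. Of the 20 tested genes nearest to MRPL50 in RefSeq's GRCg7b order (10 on each side), 15 had their highest pair mean in pair 3, with a median log2 ratio of pair 3 to the other pairs of 0.25. For MRPS30 it was 11 of 20, with a median of 0.094. These counts use the pair mean, so a counted neighbour need not have both libraries of pair 3 above the other 4. Some counted neighbours had very low levels, such as FGF10 at 0.108 to 1.18 CPM. Over all genes tested 30.1% had their highest mean in pair 3, with a median of -0.0036. Other genes of the Z chromosome were not compared, and the cause of the higher values in pair 3 was not tested.

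The other genes of mitochondrial translation were looked up from lists of the pathway. AURKAIP1, a small-subunit protein with another kind of symbol, was the 1 of 6 listed genes in the table, and it had a log2 fold change of -0.052 and pair ratios of -0.32, 0.050 and 0.11. Most of the listed translation factors, assembly factors, synthetases and transcription, RNA processing or DNA maintenance genes were not in the table either. The values therefore cover only part of each group. Of the translation factors, MTIF3, MTIF2 and MRRF were in the table, at -0.038, -0.0092 and 0.095. The 9 assembly factors in the table had a median of -0.015, from -0.17 for MRM2, a ribosomal RNA methyltransferase, to 0.17 for the GTPase MTG1. The 5 mitochondrial aminoacyl-tRNA synthetases in the table ran from -0.26 for EARS2 to 0.22 for AARS2, with a median of 0.026. Of the list for mitochondrial transcription, RNA processing and DNA maintenance, 4 genes were in the table. They ran from -0.057 for TFAM to 0.16 for TWNK, the mitochondrial helicase. None of these 22 genes was called (edgeR adjusted p of 0.512 and above), and 2 of them, AARS2 and TWNK, had an unadjusted p under 0.05, each with all 3 RA values above the controls. Over all genes tested, 8.89% had such a p, about the share of these 22, and 4.42% had all RA values above the controls. TWNK had 278, 259 and 291 CPM with RA, against 240.1, 249.9 and 253 CPM in controls. In pair 1, 5 of 9 assembly factors and 2 of 5 synthetases were lower with RA. In the control library of pair 1, 7 of 9 assembly factors and 3 of 5 synthetases were above the mean of the other controls. Their median log2 ratios there were 0.16 and 0.14. The same held for 2 of 3 translation factors and 1 of 4 genes of the transcription list, against 48.6% of all genes.

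Cytosolic ribosomal proteins, the parts of the ribosome outside mitochondria, and nuclear respiratory chain subunits, taken by symbol, were compared in the same way. The ribosomal symbols include related names such as RPL7L1, RPL3L and RPS27L, so not all 55 need be parts of that ribosome. Most of the respiratory chain genes belong to complexes that hold products of the mitochondrial ribosome, but the SDH genes do not. This set also takes in all genes with ATP5 symbols, which are named for ATP synthase. In pair 1 all 55 cytosolic ribosomal protein genes and all 41 nuclear respiratory chain genes were lower with RA, with median log2 ratios of -0.33 and -0.27. In pair 3 these medians were -0.0018 and 0.011, and in pair 4 they were -0.070 and 0.042. The control library of pair 1 held the highest value for 41 of 55 cytosolic ribosomal and 32 of 41 respiratory chain genes. None of either set was called with RA (edgeR), and 15 of 55 and 1 of 41 had an unadjusted p under 0.05, where 8.89% of all genes did. Among the cytosolic ribosomal genes the extremes were RPS10 (-0.20) and RPL3L (0.13, at 0.491 CPM with RA and 0.598 CPM in controls). In the respiratory chain set they were SDHD (-0.15) and ATP5S (0.013, SE 0.18, at 22.2 CPM with RA and 21.8 CPM in controls). In the RA library of pair 1, 2 of 55 cytosolic ribosomal genes and 5 of 41 respiratory chain genes were above the mean of the other RA libraries, against 16 of 37 mitoribosomal genes and 46.5% of all genes. The differences between these sets were not tested.

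**Figure D5:**
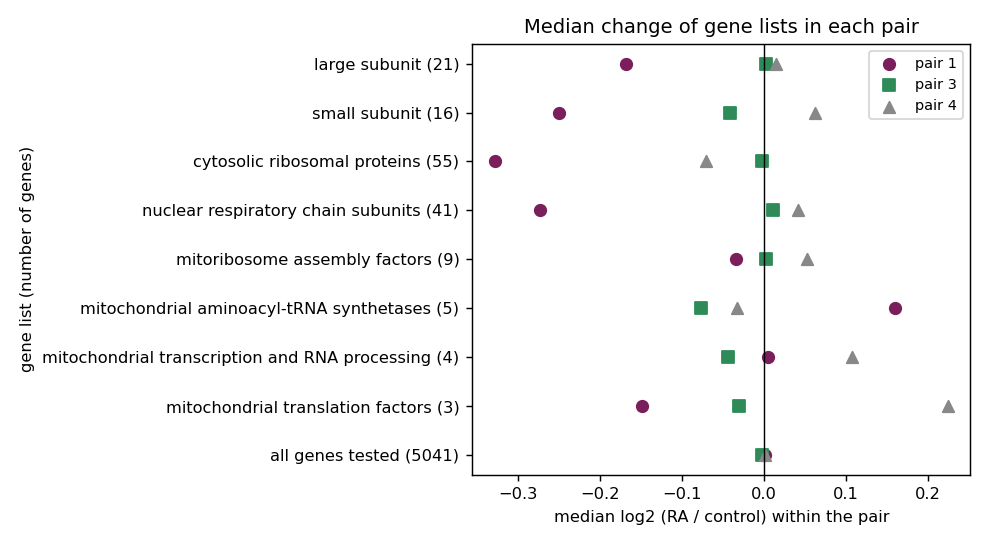
Median log2 ratio, RA over control, within pair 1 (circles), pair 3 (squares) and pair 4 (triangles) for the mitoribosomal subunits, the other gene lists and all genes tested, with the number of genes in brackets. Both subunits, the cytosolic ribosomal proteins and the respiratory chain lie between -0.33 and -0.17 in pair 1 and near 0 in pair 3.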

How the data were processed

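Per the submitters' processing notes, STAR 2.5.3a, HTSeq 0.6p1, edgeR 3.18.1 and galGal5 were used. Their settings, including any use of strand, are not given in the sources used here. Per the labels' protocols, 100-base single reads came from amplified cDNA without molecular identifiers. The authors deposited whole-number counts per gene symbol, which were tested, and a CPM table, which was not used in the tests. The authors also deposited log2 fold changes with p-values for a paired comparison.

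Counts were fitted with edgeR 4.0.16 in R 4.3.3 (filterByExpr, TMM, quasi-likelihood) with the pair as a block, and p-values were adjusted by Benjamini-Hochberg over 5041 genes. For ratios within pairs, 2 prior counts were added before taking log2 CPM. Pairs follow the series' design text, and deviations of paired libraries correlated at 0.29, 0.25 and 0.34. Those of unpaired RA and control libraries correlated at -0.21 to -0.073. Each group was centred on its own mean, which ties these values to each other, so they are not independent. Replicates of a group differed beyond sampling noise (chi-square per degree of freedom of at least 47.5). Standard errors were derived from the fold change and its F statistic. The fit was tested on simulated data. Alternatives were limma-voom (limma 3.58.1), DESeq2 1.42.0, other scalings, filters and designs, and each pair left out.

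Genes named are, in each subunit, the 4 highest and 4 lowest fold changes, the 3 with the smallest p of the pair terms, and those with a fixed role, with the extremes of each list. The planned naming and subunit comparison by level per length were not run, since lengths were not available and the ratio of CPM between libraries stands in for them. Other genes were named after their values were seen. Members and lists were chosen with earlier results of these data known. No sequences are given. All 37 symbols matched RefSeq GRCg7b, whose coordinates are not printed because the build differs and which served only for gene order and overlaps. The p-values rest on 3 pairs of libraries, with the spread of each gene moderated by that of all genes tested.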

Additional observations from a re-analysis of the deposited data

How the results depend on the processing

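No alternative called any of the 37 genes for RA at an adjusted p of 0.05, and none passed 0.10 with all pairs and edgeR. The lowest adjusted p was 0.0545, for MRPS21 without pair 1. The number of genes called in the whole table was 54 with edgeR, 88 with DESeq2, 85 with no low count filter, 7 with no replicate block and 7 with no replicate block and without the control library of pair 1, which was chosen after seeing the data. Leaving out 1 pair gave 36 to 81. The pair terms were called for 3 of the 37 genes in the main fit. They were called for 4, with MRPS35 added, by limma-voom, with library size only and with a filter of more than 1 CPM in 3 libraries. The count was 5 with no low count filter, and 1 to 3 when a pair was left out. The median log2 fold change of the 37 was -0.093 to 0.0082 with a pair left out, positive without pair 1, and 0.017 with no block and without that control library. The large minus small difference was 0.0013 to 0.055 with a pair left out. The pairing (replicate block) left the count of called mitoribosomal genes at 0. Over the 25 genes named by rule, 21 of 275 alternative values changed sign, 13 of them with a pair left out, and none was called. With a pair left out the log2 fold change was -0.21 to 0.065 for MRPL21, -0.093 to 0.0087 for MRPL23, -0.035 to 0.15 for MRPL41, -0.060 to 0.0044 for MRPL45, -0.052 to 0.14 for MRPS11, -0.14 to 0.017 for MRPS18C, -0.078 to 0.090 for MRPS30, -0.0032 to 0.055 for MRPS34, -0.031 to 0.091 for MRPS35 and -0.15 to 0.069 for MRPS5. With no block and without the control library of pair 1 it was 0.020 for MRPL21, 0.047 for MRPL45, 0.013 for MRPL53, 0.025 for MRPS18C, 0.019 for MRPS26, -0.11 for MRPS30 and 0.12 for MRPS5, and with no block alone -0.00027 for MRPS30. The causes were not tested. Counting error alone was at most 4.94%, at the lowest count, 410 for MRPS14, and covers no error of amplification.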
